A study of Mus musculus with 12 samples.

Results

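The stathmin genes Stmn1, Stmn2, Stmn3 and Stmn4 are 4 of the 37991 genes measured in adult mouse retina, and their rows were taken by gene symbol. No other row has a symbol that begins with Stmn. The family was chosen by the values of Stmn1, whose alleles in hybrid mice differed far more than the parental strains did, so the strain, allelic and gap values of Stmn1 are given as a description and carry no test.

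RNA-seq was conducted on retinas of male mice aged 8 weeks from 2 inbred strains, C57BL/6J and the wild-derived Cast/EiJ, and from both reciprocal F1 hybrids. The 12 libraries fall into 4 classes of 3, and each library was made from a pool of 6 to 8 retinas. F0 C57BL/6J and F0 Cast/EiJ are the homozygous parents. F1 B6xCast had a C57BL/6J father and a Cast/EiJ mother, and F1 CastxB6 had the reverse. No treatment or transgene is given for any class. F0 libraries were read on 1 lane against a reference of their own strain and F1 libraries on 2 lanes against a hybrid reference that holds both strains, so generation, lanes and reference cannot be told apart when F0 is set against F1. The retina is a mixed tissue, and fewer cells of a type and less RNA per cell cannot be told apart in these libraries.

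Stathmins are small proteins that bind tubulin dimers, hold them back from polymerization and promote the shrinkage of microtubules. Stmn1 encodes the cytosolic founding member, whose tubulin binding is turned off by phosphorylation. Stmn2 (SCG10), Stmn3 (SCLIP) and Stmn4 (RB3) carry an added N-terminal region that is palmitoylated and anchors them to Golgi and vesicle membranes, and they are best known from neurons and growing axons.

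On the NCBI37 build, Stmn1 (ENSMUSG00000028832) lies on the plus strand at chr4:134024235-134029758. Stmn2 (ENSMUSG00000027500) is on the plus strand at chr3:8509527-8561604, Stmn3 (ENSMUSG00000027581) on the minus strand at chr2:181041164-181049205, and Stmn4 (ENSMUSG00000022044) on the plus strand at chr14:66963133-66980517. To see which members could share reads with another gene, the annotated transcripts of each were cut into words of 50 bases and looked up in those of all other genes. Stmn1 shared 799 of its 1448 distinct words (55.2%). Stmn2 shared 0 of 1904, Stmn3 0 of 1167 and Stmn4 0 of 1603. The search covered the C57BL/6J reference sequence only, and the Cast/EiJ sequence was not analysed here.

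Of the shared words of Stmn1, 781 were found in Gm11223 (ENSMUSG00000046341), an intronless pseudogene on the minus strand of the same chromosome at chr4:69586235-69587205. The other 18 lie in AL669982.1, a predicted miRNA gene that overlaps exon 1 of Stmn1 and had 0 unique hits over all libraries. The 1060-base Stmn1 transcript with 5 exons matched Gm11223 over 970 bases, from position 80 to position 1049, with no gap and 99.5% identity. The coding sequence, from position 171 to 620, lies wholly inside this match. Stmn1 differs from the pseudogene at 5 positions, counted from 1 at the 5′ end of the transcript with the Stmn1 base written first. They are A444G in the coding part of exon 4 and T894A, T914C, G932A and C934T in the 3′ UTR in exon 5. The bases around them are printed because they are the only places inside the match where a read can tell the genes apart in the reference. Each is read 5′ to 3′ on the strand of the gene, with the differing base in capitals, at chr4:134028792-134028820, chr4:134029578-134029606, chr4:134029598-134029626 and chr4:134029616-134029644 for Stmn1 and at chr4:69586826-69586854, chr4:69586376-69586404, chr4:69586356-69586384 and chr4:69586338-69586366 for Gm11223.
Stmn1 around A444G: tcgaggagaacaacAacttcagcaagatg
Gm11223 around A444G: tcgaggagaacaacGacttcagcaagatg
Stmn1 around T894A: ggttaatggctagtTctgtattgactgtg
Gm11223 around T894A: ggttaatggctagtActgtattgactgtg
Stmn1 around T914C: ttgactgtggaagaTgtttgtgaagagta
Gm11223 around T914C: ttgactgtggaagaCgtttgtgaagagta
Stmn1 around G932A and C934T: tgtgaagagtatgtGgCggcttcttccaa
Gm11223 around G932A and C934T: tgtgaagagtatgtAgTggcttcttccaa

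Of the 5 differences, 4 thus sit close together near the end of the transcript, and the longest stretch without any difference is 449 bases. Of the 960 windows with the length of a read in the Stmn1 transcript, 628 (65.4%) are identical in Gm11223, as are 249 of the 350 windows that lie wholly in the coding sequence.

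**Figure D1:**
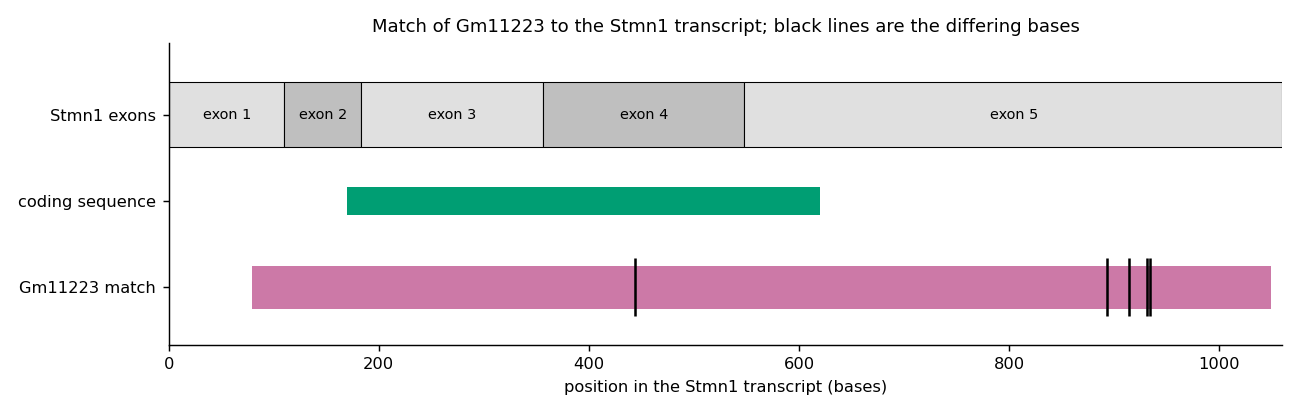
The Stmn1 transcript from its first to its last base (x axis, bases), with its 5 exons, its coding sequence and the stretch that Gm11223 matches. The black lines mark the 5 differing bases, 1 in the coding sequence and 4 near the 3′ end, and the whole coding sequence lies inside the match.

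Expression was read in FPKM, which corrects for transcript length and so allows levels to be compared between genes. For F1 libraries the mean of both alleles was used. Over the 12 libraries Stmn3 stood at 70.1 ± 4.55 FPKM (mean ± SD), Stmn1 at 51.9 ± 9.50, Stmn2 at 19.9 ± 2.88 and Stmn4 at 11.6 ± 0.984. The FPKM of Stmn1 and Stmn3 overlapped in F0 C57BL/6J, with 56.4 to 73.1 for Stmn1 and 64.6 to 74.7 for Stmn3. In F0 Cast/EiJ they did not, with 37.9 to 42.9 for Stmn1 and 65.2 to 73.5 for Stmn3. This order turned when Gm11223 was added to Stmn1, which gave 75.86 to 88.15 FPKM in F0 Cast/EiJ. All libraries of all classes had less Stmn2 (15.1 to 23.4 FPKM) than Stmn1, and less Stmn4 (9.64 to 13.0 FPKM) than Stmn2.

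**Figure D2:**
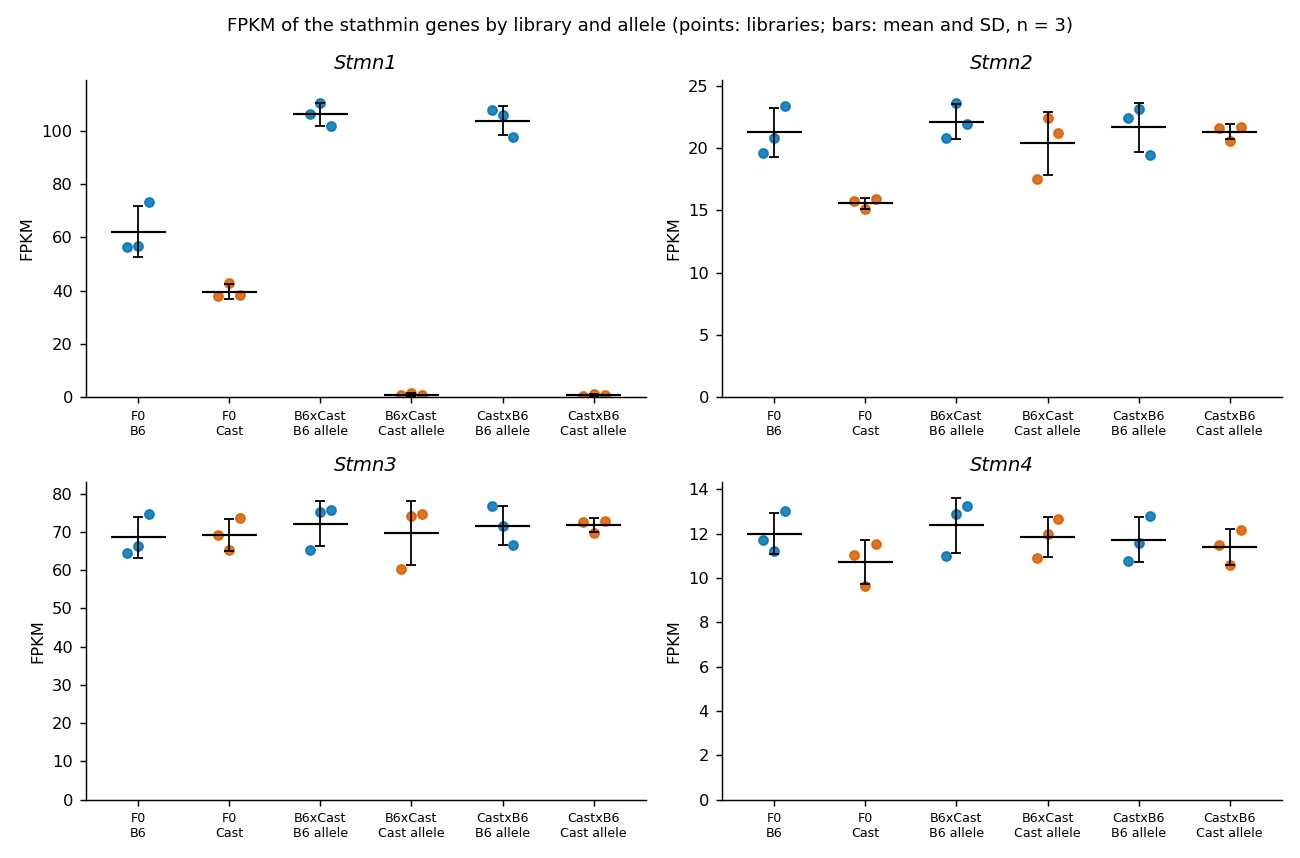
FPKM (y axis, from 0) of each stathmin gene in the 3 libraries of each F0 strain and of each allele in the F1 crosses (x axis). Points are libraries and bars are mean and SD (n = 3). The C57BL/6J alleles of Stmn1 in F1 lie above all F0 libraries and the Cast/EiJ alleles lie near 0, while both alleles of Stmn2, Stmn3 and Stmn4 overlap.

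Stmn1, the gene of the cytosolic stathmin, had more expression in F0 C57BL/6J than in F0 Cast/EiJ. The count equivalents, which are the authors' normalized estimates of the reads of a gene, were 1020, 1040 and 1310 in F0 C57BL/6J. In F0 Cast/EiJ they were 682, 761 and 703. The strains did not overlap, and the log2 difference (Cast/EiJ minus C57BL/6J, on count equivalents plus 1) was -0.64 with a standard error (SE) of 0.11 in limma, a 1.56-fold higher level in C57BL/6J.

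In F1 hybrids nearly all of Stmn1 was assigned to the C57BL/6J allele. Each allele column was normalized like a whole F0 library, so an allele that is expressed as in its parent keeps the parent's value. The C57BL/6J allele had 1890, 1960 and 1810 count equivalents in F1 B6xCast and 1920, 1890 and 1740 in F1 CastxB6. The Cast/EiJ allele had 12.2, 24.8 and 11.4 in F1 B6xCast and 8.44, 21.0 and 15.3 in F1 CastxB6. The C57BL/6J allele was thus above every F0 C57BL/6J library and the Cast/EiJ allele far below every F0 Cast/EiJ library, in both crosses. The mean log2 allelic difference was -6.91 (SE 0.17). The gap, which is the F0 difference minus the allelic difference, was 6.26 on the log2 scale (SE 0.31).

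Stmn1 ranked 13 by the absolute size of the gap among the 13414 autosomal genes with enough allele-specific reads. The median absolute gap over these genes was 0.203. The 13 genes from the top to Stmn1 are 6 protein-coding genes, 5 pseudogenes and 2 lincRNAs. Only 2 genes had a lower allelic difference, whereas 2616 genes (19.5%) had a larger absolute F0 difference than Stmn1. The gap thus came from an extreme allelic ratio beside a strain difference of common size.

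**Figure D3:**
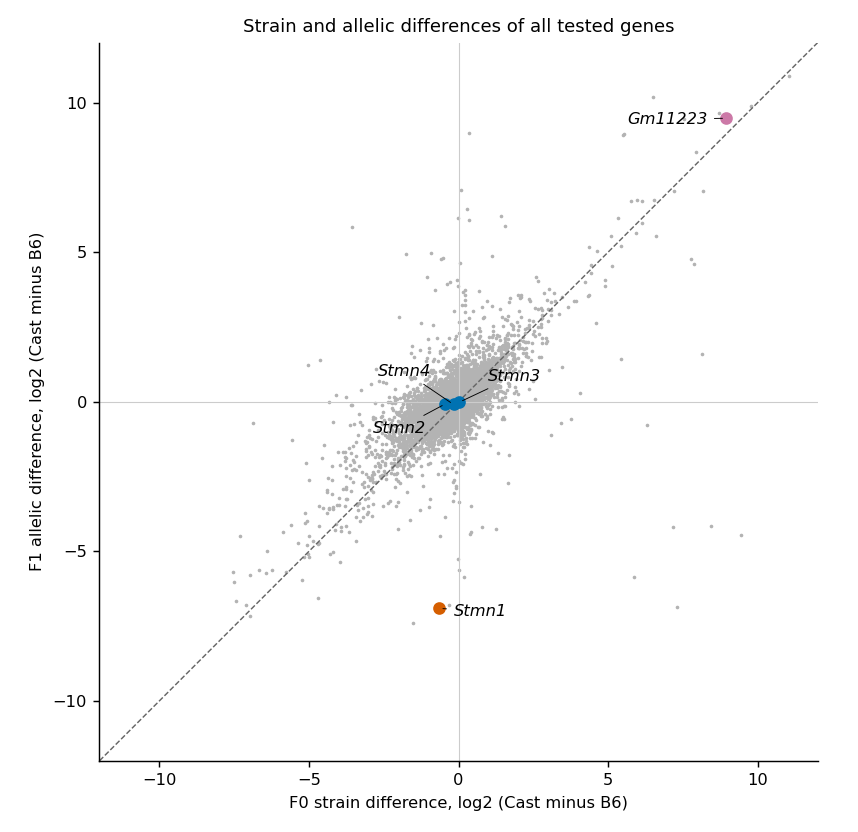
Log2 difference between the F0 strains (x axis) and between the F1 alleles (y axis), Cast/EiJ minus C57BL/6J, for 13414 genes (grey), with the stathmin genes and Gm11223 marked. The dashed line marks equal differences. Stmn1 lies far below it at -0.64 and -6.91, and the other stathmin genes lie near the origin.

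The reads behind these estimates were few for the Cast/EiJ allele. A unique hit is a read pair that fits 1 gene alone and, in F1, 1 of its alleles. The C57BL/6J allele of Stmn1 had 160 to 226 unique hits per F1 library with a median of 196.5. The Cast/EiJ allele had 0, 1 and 2 in F1 B6xCast and 1 in each F1 CastxB6 library. Over the 6 libraries 6 of 1165 allele-specific hits (0.515%, 95% Wilson interval 0.236 to 1.12) fell on the Cast/EiJ allele. The interval covers counting error only. The posterior SD of the natural log of expression was 0.0235 to 0.0279 for the C57BL/6J allele and 0.592 to 1.45 for the Cast/EiJ allele.

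Stmn1 was also short of unique hits for its level in every class. In F0 C57BL/6J it had 400, 521 and 529 unique hits, which is 0.392 to 0.501 per count equivalent, where the median of the 13414 genes was 0.815 to 0.938. In F0 Cast/EiJ it had 217, 245 and 276, which is 0.318 to 0.393 per count equivalent against a median of 0.643 to 0.792. Over the 6 F0 libraries Stmn1 stood between the percentiles 1.49 and 2.23 of these genes. In F1 the C57BL/6J allele had 0.0847 to 0.118 unique hits per count equivalent. For its level, Stmn1 thus had fewer reads that belong to it alone than nearly all genes.

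Gm11223, the pseudogene that matches Stmn1, showed the opposite pattern. It had 1.39, 0.00856 and 0.0188 count equivalents in F0 C57BL/6J and 622, 565 and 828 in F0 Cast/EiJ. In F1 its C57BL/6J allele did not exceed 0.0136 count equivalents in any library. Its Cast/EiJ allele had 660, 748 and 750 in F1 B6xCast and 833, 659 and 670 in F1 CastxB6. The pseudogene was thus listed almost wholly in Cast/EiJ, in parents and hybrids alike.

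Unique hits of Gm11223 gave the same picture. There was 1 hit in the F0 C57BL/6J libraries together, and 174, 161 and 289 in the F0 Cast/EiJ libraries. In F1 the C57BL/6J allele had 0 of 1665 allele-specific hits, which allows a share of up to 0.18% when a count of 0 is taken to allow 3 counts. The Cast/EiJ allele had between 205 and 384 hits per library, which is 0.305 to 0.461 per count equivalent. Gm11223 made up 42.6 to 54.1% of the summed count equivalents of both genes in the F0 Cast/EiJ libraries and 96.8 to 99.0% of those of the Cast/EiJ allele in F1. Within the Cast/EiJ columns the division between gene and pseudogene thus differed between F0 and F1.

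Because the genes share most of their sequence, their values were summed and the fits repeated, an alternative chosen after seeing the data. The sum was 1124 ± 162 count equivalents in F0 C57BL/6J and 1387 ± 125 in F0 Cast/EiJ (SD, n = 3). In F1 it was 1868 ± 79.9 for the C57BL/6J allele and 736 ± 67.7 for the Cast/EiJ allele (SD, n = 6). The log2 strain difference of the sum was 0.31, of the other sign than that of Stmn1 alone. The allelic difference of the sum was -1.35, and the gap fell from 6.26 to 1.66. The gap of the sum was thus smaller than that of Stmn1 alone, and the alleles of the sum did not overlap. Since Gm11223 was listed almost wholly on the Cast/EiJ allele, adding it raises that allele whether or not reads are shared. The fall therefore cannot tell whether shared reads made the gap.

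The unique hits of the pair, summed, did not show the remaining excess of the C57BL/6J allele. They totalled 1451 in F0 C57BL/6J and 1362 in F0 Cast/EiJ, and 1159 for the C57BL/6J allele and 1671 for the Cast/EiJ allele in F1. In edgeR the log2 strain difference of the summed hits was 0.20, the allelic difference 0.52 and the gap -0.29. For Stmn1 alone the same test on unique hits gave -0.67, -7.42 and 6.77. The direction of the allelic difference of the sum therefore depended on whether reads shared between genes or alleles were counted. Unique hits are also set by how many bases differ, which was not corrected for.

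**Figure D4:**
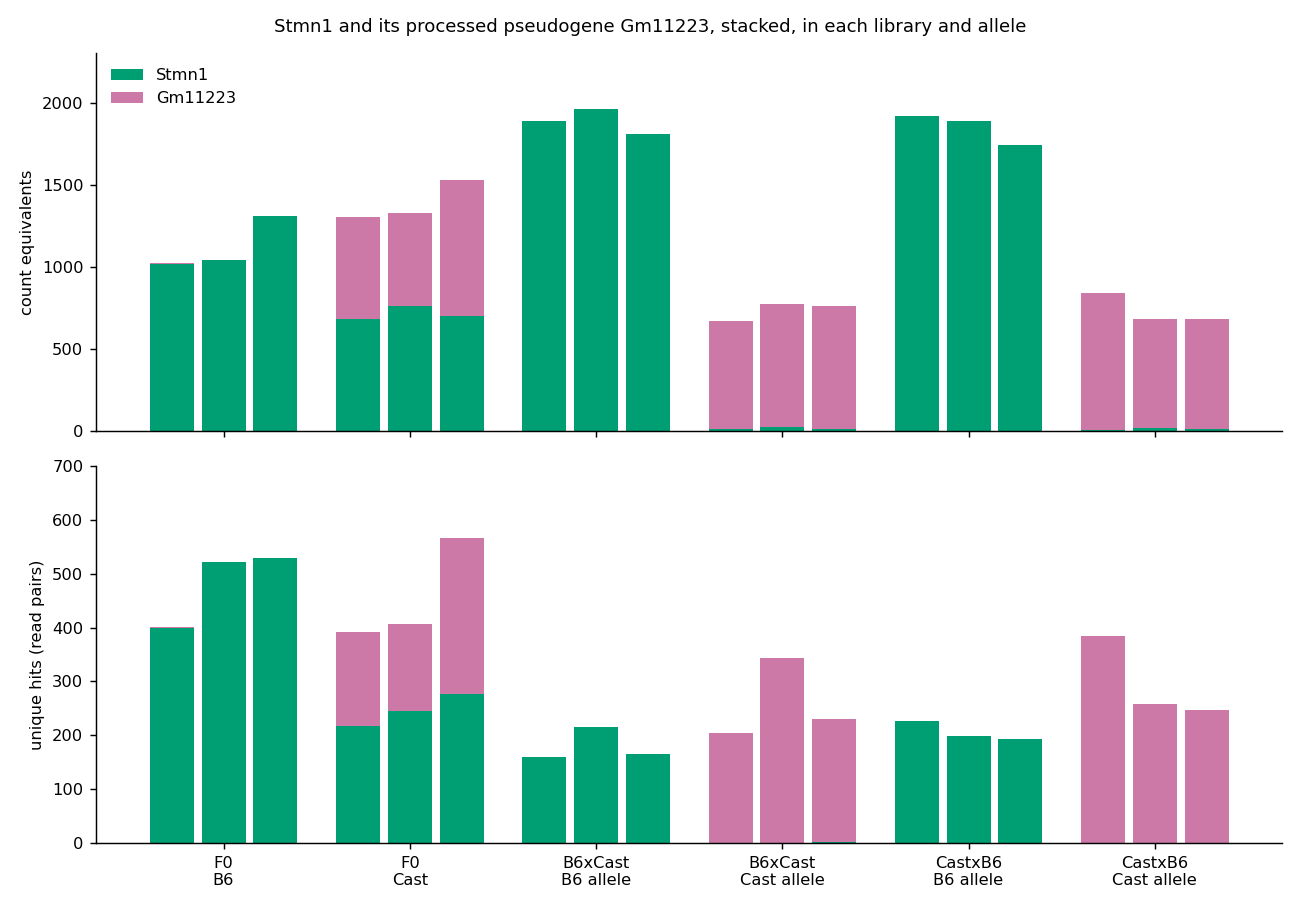
Count equivalents (top, y axis) and unique hits (bottom, y axis) of Stmn1 and Gm11223, stacked, in each F0 library and each allele of each F1 library (x axis, replicates 1 to 3 from left to right). Gm11223 is large enough to be visible only in the Cast/EiJ columns, where it takes 42.6 to 54.1% of the count equivalents in F0 and 96.8 to 99.0% in F1.

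The total of both alleles changed little. The mean of the Stmn1 alleles was 951 ± 40.9 count equivalents in F1 B6xCast and 932 ± 47.7 in F1 CastxB6, between the F0 strains at 1123 ± 162 and 715 ± 40.9 (SD, n = 3). The F1 mean differed from the mean of the F0 strains by 0.09 on the log2 scale (SE 0.06), which did not pass the test (limma, Benjamini-Hochberg adjusted p = 0.456). The mean of the alleles for the sum of Stmn1 and Gm11223 was 1311 ± 47.7 and 1293 ± 84.3, again between the F0 strains. In both measures the total of the hybrids thus lay between their parents, whereas the C57BL/6J allele lay above both parents and the Cast/EiJ allele below both.

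Genes beside Stmn1 did not share its allelic ratio. Within 100 kb lie 10 other genes, 6 of which could be tested for the gap. Their allelic differences ran from -0.63 to 0.24 and their gaps from -0.31 to 0.38, with adjusted p-values in limma from 0.0685 to 0.968. The lowest allelic difference was that of Man1c1, a Golgi mannosidase, with a gap of 0.38. Paqr7, the nearest tested gene at a distance of 22854 bases, had an allelic difference of 0.02 and 1100 and 1042 unique hits on its C57BL/6J and Cast/EiJ alleles. For Fam54b the hits were 4185 and 3913.

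Other copies of Stmn1 sequence in the genome are more distant. A stretch inside the span of Dlgap1 at chr17:70741937-70742897 matched over 981 aligned positions with 93.5% identity, and 1 inside Stt3b at chr9:115190212-115191190 matched with 85.3%. Neither overlaps an annotated exon. The best matches of the Stmn1 transcript to its own relatives were 157 bases of Stmn2 at 80.3% identity and 195 bases of Stmn3 at 73.8%.

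Stmn2, the gene of the axonal stathmin SCG10, was lower in F0 Cast/EiJ than in F0 C57BL/6J, and its alleles in F1 were nearly equal. F0 C57BL/6J libraries had 680, 730 and 811 count equivalents and F0 Cast/EiJ libraries 546, 529 and 559. The strains did not overlap. The log2 difference was -0.44 (SE 0.09), a 1.36-fold higher level in C57BL/6J (limma, adjusted p = 0.00487). Over all 14452 autosomal genes tested, 33.8% passed at an adjusted p under 0.05. Stmn2 was the only one of Stmn2, Stmn3 and Stmn4 that passed.

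In F1 B6xCast the C57BL/6J allele of Stmn2 had 709, 805 and 747 count equivalents and the Cast/EiJ allele 598, 764 and 722. In F1 CastxB6 the values were 764, 788 and 665 for the C57BL/6J allele and 738, 704 and 740 for the Cast/EiJ allele. The alleles overlapped in both crosses, and every allele value was above every F0 Cast/EiJ library. The allelic difference was -0.07 (SE 0.06, adjusted p = 0.356 in limma). The Cast/EiJ allele had 742 of 1532 allele-specific unique hits (48.4%, Wilson interval 45.9 to 50.9).

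The gap of Stmn2 was -0.37 (SE 0.11) and passed the test (limma, adjusted p = 0.0343), as did 14.0% of the genes tested for a gap. The call was close to the threshold and depended on which libraries were kept. Leaving out F0 C57BL/6J replicate 2 or 3, any F0 Cast/EiJ library, F1 B6xCast replicate 3 or F1 CastxB6 replicate 1 or 3 raised the adjusted p above 0.05, to 0.109 at most, while the gap stayed between -0.43 and -0.30. With F1 B6xCast alone the adjusted p was 0.121, and with edgeR on unique hits it was 0.176.

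The F1 level of Stmn2, as the mean of both alleles, was 724 ± 66.1 count equivalents in F1 B6xCast and 733 ± 26.7 in F1 CastxB6, close to the 740 ± 66.1 of F0 C57BL/6J and above the 545 ± 15.0 of F0 Cast/EiJ (SD, n = 3). The F1 mean exceeded the mean of the F0 strains by 0.21 on the log2 scale (SE 0.06, limma, adjusted p = 0.03), in a comparison where 12.6% of 14209 genes passed. This call was also lost when any of 8 libraries was left out, with adjusted p-values up to 0.0788. They were F0 C57BL/6J replicates 1 and 2, F0 Cast/EiJ replicates 1 and 2, F1 B6xCast replicates 2 and 3 and F1 CastxB6 replicates 1 and 2.

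Some markers of retinal ganglion cells, the neurons that send axons through the optic nerve, were also lower in F0 Cast/EiJ. Of 16 such markers 8 were lower and 1, Opn4, was higher, where 16.6% of all genes were lower and 17.2% higher, and the median log2 difference was -0.32, against 0.03 over all genes. Their summed level was 19090 to 20910 count equivalents in F0 C57BL/6J, 13470 to 14570 in F0 Cast/EiJ, 16110 to 17790 in F1 B6xCast and 17230 to 18300 in F1 CastxB6, and no marker was at 0. In both F1 crosses the summed level thus lay below that of F0 C57BL/6J. For F1 against F0, 1 of the 16 was higher and 0 were lower, with a median of 0.06 against 0.02 over all genes, of which 12.6% passed. The lower markers were Nefl, Nefm, Nefh, Thy1, Tubb3, Pou4f1, Pou4f3 and Nrn1. Nefl, the light neurofilament chain, had an F0 difference of -0.66 (limma, adjusted p = 0.000569) and Thy1, a surface protein, one of -0.73 (adjusted p = 0.000112). For the gap 6 of the 16 markers were lower and 1, Sncg, was higher, with a median of -0.33 against 0.00 over all genes, of which 8.31% were lower and 5.64% higher. The part of ganglion cell content in the values of Stmn2 was not tested.

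Stmn3, the gene of SCLIP, had nearly the same level everywhere. Its mean over all libraries, 70.1 FPKM, was the highest of the members, but Stmn1 summed with Gm11223 stood at 73.3. Stmn3 had 1280, 1320 and 1460 count equivalents in F0 C57BL/6J and 1360, 1300 and 1470 in F0 Cast/EiJ, and the strains overlapped. The log2 difference was 0.03 (SE 0.08, limma, adjusted p = 0.836), and its sign turned under TMM scaling (-0.04). The C57BL/6J allele ran from 1260 to 1480 count equivalents over the F1 libraries with a median of 1415, and the Cast/EiJ allele from 1170 to 1450 with the same median. The allelic difference was -0.01 (SE 0.06, adjusted p = 0.853) and the gap 0.04 (SE 0.10, adjusted p = 0.846). The Cast/EiJ allele had 3244 of 6552 allele-specific unique hits (49.5%, Wilson interval 48.3 to 50.7), a narrower interval than those of Stmn2 and Stmn4.

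Stmn4, the gene of RB3, had the lowest level. It had 265, 238 and 299 count equivalents in F0 C57BL/6J and 253, 223 and 236 in F0 Cast/EiJ, and the strains overlapped. The log2 difference was -0.17 (SE 0.12, limma, adjusted p = 0.3). In F1 the C57BL/6J allele ran from 219 to 300 count equivalents with a median of 271 and the Cast/EiJ allele from 211 to 269 with a median of 251.5. The allelic difference was -0.09 (SE 0.08, adjusted p = 0.399) and the gap -0.07 (SE 0.15, adjusted p = 0.803). The Cast/EiJ allele had 933 of 1899 allele-specific unique hits (49.1%, Wilson interval 46.9 to 51.4).

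The members differed in how much of their level rested on unique hits in F1. Per count equivalent, the C57BL/6J and Cast/EiJ alleles had 0.537 to 0.706 and 0.522 to 0.725 unique hits for Stmn4, 0.322 to 0.481 and 0.320 to 0.476 for Stmn3, and 0.134 to 0.208 and 0.132 to 0.206 for Stmn2. In each of these genes both alleles covered nearly the same range. Stmn2 thus had few allele-specific reads for its level, although none of its words is shared with another gene.

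A parent-of-origin effect is a difference between the maternal and the paternal allele across the reciprocal crosses, and no member passed the test for it. The maternal minus paternal log2 difference was 0.04 for Stmn1 (SE 0.17), -0.05 for Stmn2 (SE 0.06), -0.03 for Stmn3 (SE 0.06) and -0.05 for Stmn4 (SE 0.08), each with an adjusted p of 1. Their unadjusted p-values in limma ran from 0.402 to 0.824. Over all genes 0.492% passed this test. The sign for Stmn1 turned without F1 B6xCast replicate 2 or F1 CastxB6 replicate 1, and when Gm11223 was added. The direction of the Stmn1 allelic ratio was the same whichever parent gave the allele, at -6.87 in F1 B6xCast and -6.94 in F1 CastxB6.

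Totals did not differ detectably between the reciprocal crosses either. The log2 difference, F1 CastxB6 minus F1 B6xCast, was -0.03 for Stmn1 (SE 0.06), 0.02 for Stmn2 (SE 0.08), 0.02 for Stmn3 (SE 0.08) and 0.00 for Stmn4 (SE 0.08), with limma adjusted p-values from 0.949 to 0.996, where 0.0401% of 14967 genes passed. The F1 mean of Stmn3 differed from the F0 mean by 0.03 (SE 0.06, limma, adjusted p = 0.829) and that of Stmn4 by 0.03 (SE 0.07, limma, adjusted p = 0.837).

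Genes that act with the stathmins were described from a list of 129 symbols, of which 115 were found. The list holds tubulins, kinases that phosphorylate stathmins, palmitoyltransferases, microtubule stabilisers and plus-end proteins, severing and depolymerising factors and growth-associated neuronal genes. Between the F0 strains 17 of 104 tested genes were higher and 22 lower in Cast/EiJ, with a median log2 difference of -0.02 against 0.03 over all genes, of which 17.2% were higher and 16.6% lower. Between the alleles 24 of 102 were higher and 27 lower on the Cast/EiJ allele, where 47.0% of all genes passed, 23.5% in each direction. For the gap 5 were higher (Zdhhc7, Tubb5, Spast, Dctn1 and Zdhhc17) and 6 lower (Kif24, Nefl, Katnal1, Tubb3, Mtap1a and Tuba1b), where 5.64% and 8.31% of all genes were. Nefl and Tubb3 also stand among the ganglion cell markers. Genes given only to account for a small count were named after their values were seen.

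Tubulins, the targets of stathmins, moved in both directions. Of 16 tested tubulin genes 4 (Tuba1c, Tuba4a, Tubb5 and Tubg1) were higher and 7 lower in F0 Cast/EiJ, where 17.2% of all genes were higher and 16.6% lower. Tuba1c had 8.58 ± 6.31 count equivalents in F0 C57BL/6J and 2087 ± 391 in F0 Cast/EiJ (SD, n = 3), a log2 difference of 7.95 (limma, adjusted p = 7.96e-07), and its alleles differed by 8.36 (adjusted p = 4.22e-12). Tuba1b, a close relative of Tuba1c, was lower, with 10770 ± 306 and 6293 ± 348 count equivalents (log2 difference -0.78, limma, adjusted p = 4.27e-05). Alpha-tubulin genes are close relatives of each other, and how many reads they share was not measured here, so these values are uncertain. Tube1, the gene of epsilon-tubulin, was lower in F0 (-1.22, limma, adjusted p = 4.99e-05) and on the Cast/EiJ allele (-1.04, adjusted p = 1.31e-09).

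Among genes that modify stathmins, 3 of 5 tested palmitoyltransferases were higher in F0 Cast/EiJ and 0 were lower, where 17.2% and 16.6% of all genes were. They were Zdhhc7 (log2 difference 0.50, limma, adjusted p = 0.00165), Zdhhc2 (0.40, adjusted p = 0.00563) and Zdhhc17 (0.20, adjusted p = 0.0285). Of 24 tested kinases 2 (Mapk13 and Map2k4) were higher and 4 (Mapk14, Camk2d, Pak1 and Uhmk1) lower in F0 Cast/EiJ, shares no larger than 17.2% and close to 16.6% over all genes. Uhmk1, a kinase known for binding stathmin, was lower in F0 by 0.46 and on the Cast/EiJ allele by 0.47 on the log2 scale (limma, adjusted p = 0.000663 and 2.11e-09).

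Of the factors that stabilise or cut microtubules, Clasp1, a plus-end protein, was higher in F0 Cast/EiJ with 5360 ± 131 count equivalents against 3490 ± 72.1 (SD, n = 3, log2 difference 0.62, limma, adjusted p = 7.94e-05). Katnal2, a katanin-like protein, was lower with 56.5 ± 4.52 against 206 ± 20.1 (-1.84, adjusted p = 2e-05) and lower on the Cast/EiJ allele (-2.19, adjusted p = 6.08e-12). Tbce, a tubulin folding cofactor, was lower on the Cast/EiJ allele (-0.97, adjusted p = 4.49e-06). Ckap5, a microtubule polymerase, was higher on it (0.71, adjusted p = 0.00308), and so was Kif24, a kinesin (1.68, adjusted p = 0.00117), although the Kif24 alleles varied widely, with 82.3 ± 65.0 count equivalents for C57BL/6J and 240 ± 130 for Cast/EiJ (SD, n = 6).

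The profile of each member over the 12 libraries was compared with 14451 other genes by Pearson correlation of log2 levels. The libraries share their normalization and classes, and the values are a description. For Stmn1 the most alike genes were Tnfaip3, a ubiquitin-editing enzyme (r = 0.97), Rhoj, a small GTPase (0.968), and 4833439L19Rik (0.967). For Stmn2 they were the potassium channel gene Kcnc2 (0.987), Sparcl1 (0.982) and the ribosomal protein gene Rps3a (0.978). Stmn3 was most alike to Hspe1, a mitochondrial chaperonin (0.968), Rpl22 (0.928) and 2010107E04Rik (0.921), and Stmn4 to Tdrd3 (0.834), Lrrc8e (0.831) and Rasl11a (0.83).

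Depth ran from 8158534 to 12363291 unique hits per library, and 2 of the 3 F0 Cast/EiJ libraries were the shallowest of all. Rod markers were found in all classes with a summed level between 1022000 and 1105000 count equivalents, and none of these 12 markers was at 0. Blood markers summed to 688 to 1041 count equivalents in F0 C57BL/6J and 277 to 634 in the other classes. Microglia markers summed to 351 to 366 in F0 C57BL/6J and 177 to 269 in the others, and astrocyte markers to 483 to 509 and 271 to 359. Pigment epithelium markers summed to 278 to 331 in F0 C57BL/6J and 129 to 166 in F0 Cast/EiJ, and in F1 to 156 to 364 in B6xCast and 214 to 350 in CastxB6. Cone markers summed to 18050 to 20320 in F0 C57BL/6J and 14700 to 16880 in F0 Cast/EiJ. Amacrine cell markers summed to 25560 to 27820 and 29990 to 31110, and 5 of 13 were higher and 0 lower in F0 Cast/EiJ. Over all genes 17.2% were higher and 16.6% lower. Of 12 bipolar cell markers 2 were higher and 2 lower, and of 12 Mueller glia markers 2 were higher and 4 lower. The part of these cells in the strain differences was not tested.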

How the data were processed

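Per the labels, each library is polyadenylated RNA of pooled retinas, and nothing ties replicates to single animals. The authors trimmed reads with Trim Galore 0.2.6, aligned F0 reads to their strain's transcriptome and F1 reads to a hybrid of both with Bowtie 0.12.9 (Ensembl release 67, NCBI37), and quantified genes and alleles with MMSEQ 1.0.0 beta. They deposited normalized count equivalents (a signal), the natural log of expression, whose exponential is used as FPKM, its posterior SD, and unique hits (a count, not normalized). A deposited table of the authors' own comparisons (regulatory models, Bayes factors) was not used. Nor were the 36 columns of per-sample log expression and SD given beside these comparisons. RNA-seq was not strand-specific.

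limma 3.58.1 (R 4.3.3) was fitted to log2 of count equivalents plus 1 over all autosomal genes. F0, total and F1-against-F0 fits kept genes with at least 10 in at least 3 libraries. The allele fit required 10 allele-specific unique hits per F1 library on average, with the library as a block (consensus correlation 0.1354). P-values were Benjamini-Hochberg adjusted, with calls under 0.05. Alternatives used edgeR 4.0.16, DESeq2 1.42.0 and TMM. Fits were tested on simulated data. Sequences come from NCBI37 and GENCODE M1, an earlier annotation of that build, searched with BLAST+ 2.17.0. Members, lists and tests were chosen with earlier results of these data known. Besides the members, the text names genes sharing words with them, genes within 100 kb of Stmn1, the 3 most alike genes per member, and called pathway genes averaging at least 100 count equivalents with the 3 largest differences each way per comparison. Genes behind small counts were named after their values were seen.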

Additional observations from a re-analysis of the deposited data

Results flagged for a closer look

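The strain difference in F0 was set against the allelic difference in F1 for each gene. In that test 20 genes differed between generations (limma, adjusted p under 0.05) among the stathmins other than Stmn1, the pathway genes, the ganglion cell markers and the genes with profiles most like those of the stathmins. Of 102 tested pathway genes 5 were higher and 6 lower, and of 16 ganglion cell markers 1 was higher and 6 lower. Over all 13414 genes 14.0% passed, 5.64% higher and 8.31% lower, so such gaps are common. For Stmn2 the F0 difference exceeded the allelic difference in the direction of lower Cast/EiJ expression, with a gap of -0.37. The gap was 0.44 for Zdhhc7, a palmitoyltransferase, with 522 ± 26.9 count equivalents in F0 C57BL/6J, 740 ± 39.2 in F0 Cast/EiJ and 691 ± 30.3 and 720 ± 36.3 for the C57BL/6J and Cast/EiJ alleles (SD, n = 3 in F0 and 6 in F1). For Tubb5, a beta-tubulin gene, it was 0.36, and for Spast, which encodes the severing protein spastin, 0.32. In the other direction it was -0.43 for Katnal1, a katanin-like protein, and -0.50 for Nefl, the neurofilament gene that also stands among the ganglion cell markers. For Kif24 it was -2.30 (SE 0.67), and its F0 libraries had 184 ± 48.2 and 123 ± 47.6 count equivalents in C57BL/6J and Cast/EiJ (SD, n = 3). Among the other pathway genes the gap was 0.31 for Dctn1, 0.23 for Zdhhc17, -0.32 for Tuba1b, -0.35 for Mtap1a and -0.42 for Tubb3. Among the other ganglion cell markers it was 2.82 for Sncg, the highest of the 20, and -0.36 for Slc17a6, -0.46 for Thy1, -0.54 for Nefm and -0.87 for Nefh. Of the genes with similar profiles it was 0.25 for 4833439L19Rik, -0.55 for Sparcl1 and -0.92 for Rps3a. The causes were not tested.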

How the results depend on the processing

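Summing Stmn1 with Gm11223, chosen after seeing the data, moved the Stmn1 strain difference to 0.31, the allelic difference to -1.35, the gap to 1.66 and the parent-of-origin difference to -0.012. In unique hits the summed values were 0.20, 0.52 and -0.29. Without Gm11223 the strain, allelic and gap values of Stmn1 stayed within the spread between libraries under every other alternative. The Stmn2 gap missed the threshold with F1 B6xCast alone (-0.32) and in unique hits with edgeR (-0.34), and its F1 excess missed it with no filter on low values (0.21, adjusted p = 0.0588). Signs of small differences turned in unique hits for the crosses of Stmn1 (0.084) and Stmn4 (-0.043), under TMM for the Stmn3 strain difference (-0.038) and gap (-0.023), and in F1 CastxB6 alone for the Stmn3 allelic difference (0.012).

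With 1 library left out, the ranges were as follows. The parent-of-origin difference ran from -0.142 to 0.168 for Stmn1, -0.048 to 0.004 for Stmn3 and -0.131 to 0.036 for Stmn4. The difference between crosses ran from -0.06 to 0.014 for Stmn1, -0.051 to 0.081 for Stmn2, and -0.063 to 0.067 for both Stmn3 and Stmn4. The gap ran from -0.43 to -0.30 for Stmn2, -0.008 to 0.096 for Stmn3 and -0.165 to 0.009 for Stmn4. The F1 excess ran from 0.18 to 0.25 for Stmn2 and -0.007 to 0.074 for Stmn4. For Stmn3 the strain difference ran from -0.023 to 0.081 and the allelic difference from -0.047 to 0.006. Called pathway genes between the F0 strains ran from 25 to 35, against 39 with all libraries, and the lowest count was that without F0 Cast/EiJ replicate 3. The cause of these changes was not tested beyond the smaller number of libraries.

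Replicate numbers were not used as pairs in the main fits. Of 18 same-numbered pairs 6 had deviations correlated above 0.1 (range -0.138 to 0.405). All 6 were among replicates 1 and 3 of the F0 strains and F1 B6xCast. Of the 12 libraries 5 correlated best with their own number. Whether libraries of the same number share a batch was not tested. With a replicate block the calls rose from 4887 to 6376 between the F0 strains and from 1794 to 2032 for F1 against F0, and the Stmn2 strain difference (-0.44, adjusted p = 0.00162) and gap (-0.37, adjusted p = 0.0325) in limma kept their calls. Over all genes, TMM scaling changed the share of calls that were higher from 50.9 to 39.7% between the F0 strains, from 40.4 to 25.1% for the gap and from 63.3 to 80.8% for F1 against F0, where calls rose from 1794 to 3012. With no filter the F0 calls fell from 4887 to 3161 of 34964 genes and those between crosses rose from 6 to 24. Calls for F1 against F0 rose to 2470 with no filter, and 43.0% of them were higher. Parent-of-origin calls fell from 66 to 39 in unique hits with edgeR and to 32 with posterior SD weights. Leaving out F1 B6xCast replicate 1 gave 12 calls between crosses. The few unique hits of the Stmn1 Cast/EiJ allele limit its ratio.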
